A study of Mus musculus with 6 samples.

Results

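The ion channels described here are all probe sets whose single annotated gene symbol starts with Kcn (potassium channels and their partners), Cacn (calcium channels), Hcn (hyperpolarisation-activated channels) or Scn followed by a digit (sodium channels). These were 62 of 8251 genes, measured by 75 of 12422 probe sets. They were measured in total brain of 6 male mice. The knockout group held 3 animals with a constitutive knockout of Ncam, the gene of the neural cell adhesion molecule NCAM (symbol Ncam1), and the wild-type group held 3 animals. Both groups were C57BL/6J, and each held 2-month-old animals as replicates 1 and 2 and a 3-month-old animal as replicate 3. The knockout is not limited to a cell type. A one-colour Affymetrix array was used per brain, which gives n = 3 animals per group.

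Voltage-gated channels open or close with the membrane potential and shape how neurons fire. Sodium channels start the action potential, potassium channels end it and set the rate of firing, calcium channels couple it to transmitter release and to burst firing, and HCN channels carry a pacemaker current. Inward rectifier and background potassium channels set the resting potential, and auxiliary subunits change how the pores open and reach the membrane. Several of these genes, Kcnc1 and Cacna1g among them, are known to be strongly expressed in cerebellar neurons.

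Signals are linear intensities in the arrays' own units, scaled by array to a mean of 300.2 over the middle 96% of values. The brightest Ncam1 probe set read between 208.7 and 327.4 in knockout brains, against 1216 to 1448. All 15 probe sets of cerebellar markers, 11 of the 14 genes listed, were lowest in knockout replicate 2, where their summed signal was 2822 against 10759 to 12178 on the other 5 arrays. Neuronal markers summed to 21093 to 21484 in knockout brains, against 20782 to 22161. Oligodendrocyte markers, 5 of the 6 genes listed, summed to 15150 to 16615 against 19097 to 19267. Astrocyte markers, 5 of 5 genes, summed to 8047 to 9395 against 9673 to 10379, and neither sum overlapped. The largest part of the astrocyte sum was Aldoc, which itself overlapped (5285 to 5953 against 5836 to 6939). Of 7 astrocyte probe sets 2 were apart, both lower in knockout brains, and 2, both of Gfap, had positive differences (0.06 each). Of 9 tested oligodendrocyte probe sets 5 were apart, all lower in knockout brains and all of Mobp, Mag or Mbp. The widest gap in signal was that of a Mobp probe set, with means of 2644 against 3550. Mog overlapped, and 1 probe set of Mag had a positive difference (0.25). The summed signal of 6 pituitary genes was 15876, 1282 and 1394 in knockout replicates 1, 2 and 3. It was 954.7 to 1132 in wild-type brains, also without overlap. Its largest part in knockout replicate 1 was Gh, which itself overlapped (11613, 355.5 and 409.7 against 376.8, 222.4 and 284.2). Ghrhr and Cga overlapped as well, while Prl, Pomc and Lhb were apart. The 3' to 5' signal ratio of the Gapdh control lay at 0.811 to 0.826 for knockout brains and at 0.768 to 0.798 for wild-type brains, while that of the actin control overlapped (1.14 to 1.22 and 1.08 to 1.20). No marker probe set was at 0 on any array.

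Across the channels, no member passed the test over the whole array, and the members with the lowest p values all lay lower in knockout brains. Of the 75 probe sets, 43 (37 genes) were bright enough to be tested, with a mean at or above a signal of about 72.2. With limma 0 of 43 had an adjusted p under 0.05, where 0.0268% of all tested probe sets did, and the lowest adjusted p among channels was 0.416. At an unadjusted p under 0.05, 5 of 43 were lower (11.6%, against 3.68% of all tested probe sets) and 0 were higher (against 3.26%). The knockout minus wild-type difference on the log2(signal + 16) scale was negative for 23 (53.5%, against 49.6% of all tested) and positive for 20, with a median of -0.01 against 0.00 over all 7453 tested probe sets. The 3 knockout signals lay below all 3 wild-type signals for 6 of 43 probe sets (14%, against 6.80% of all tested) and above them for 2 (4.65%, against 6.08%). The 5 lower members came from 5 classes and are Scn1a, Kcnc1, Cacna1g, Kcnj9 and Hcn3. Kcnc1 and Cacna1g had been picked out with earlier results of these data known, and beside them 3 of 41 were lower (7.32%) and 4 of 41 lay below without overlap (9.76%). Kcnc1 and Kcnd3 passed the filter on dim signals through their wild-type level, and Kcna6 through its knockout level. The knockout signals of the Kcnj9 probe set lay near the limit of that filter. Leaving out at least 1 single array changed the sign of the difference for 19 of 43 (44.2%, against 43.7% of all tested). In total brain, fewer cells of a type and less RNA per cell cannot be told apart. The summed oligodendrocyte, astrocyte and pituitary signals and the Gapdh ratio above, though not the actin ratio, were apart between the genotypes. Their part in these differences was not tested.

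**Figure D1:**
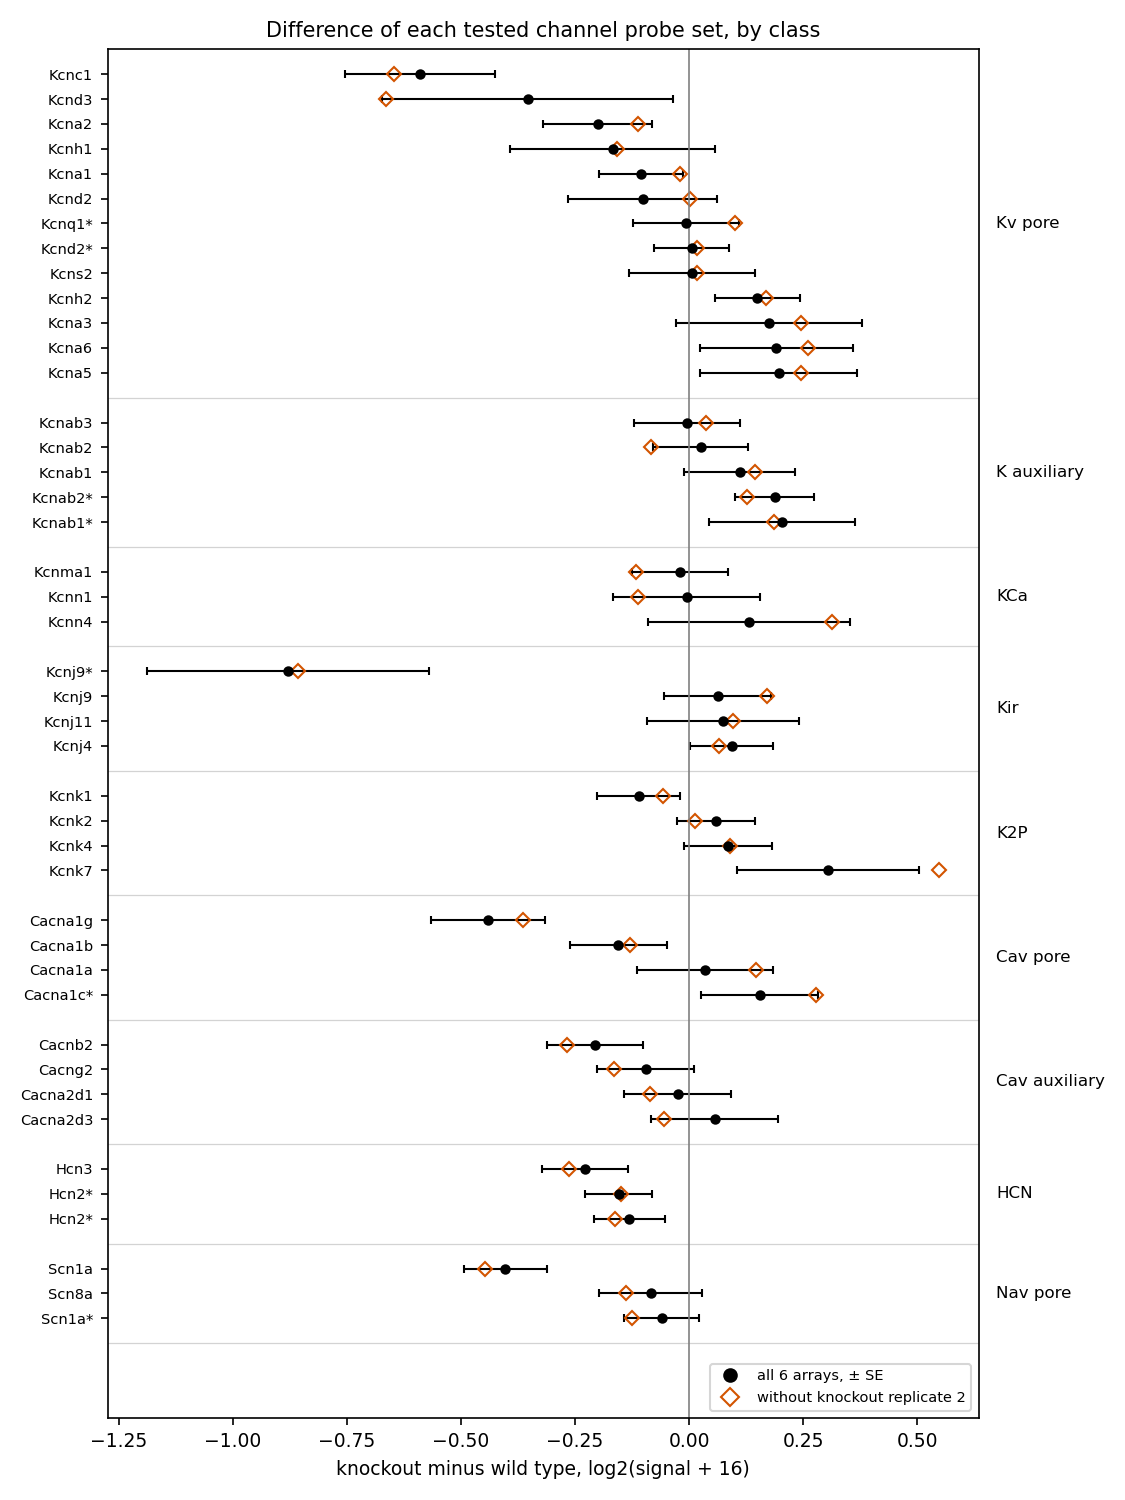
Knockout minus wild-type difference of the 43 tested channel probe sets, in log2(signal + 16), grouped by class and sorted within it. Black points with bars are the fit of all 6 arrays ± SE (n = 3 per group), open diamonds the fit without knockout replicate 2, and * marks a less specific probe set. The differences run from -0.88 (Kcnj9*) to 0.30 (Kcnk7), and most bars cross or come close to 0.

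Scn1a encodes the pore of a sodium channel on which fast-spiking inhibitory neurons depend, and its loss of function causes epilepsy. Its regular probe set read 497.4, 516.6 and 441.5 in the knockout animals (here and below in the order of replicates 1, 2 and 3) and 654.8, 673.4 and 608.6 in the wild-type animals. All 3 knockout brains lay below all 3 wild-type brains. The means were 485.2 ± 39 (SD, n = 3) and 645.6 ± 33.4, and the fitted difference is 1.32-fold on the scale of signal + 16, as are the other folds given here. The log2 difference was -0.40 ± 0.09 (SE; adjusted p = 0.416 in limma). By the exact two-sided permutation test p = 0.1, which is as low as 3 against 3 can reach. The other Scn1a probe set, of a less specific kind, did not show this separation. It read 1547, 1710 and 1436 in knockout brains against 1570, 1735 and 1579, a log2 difference of -0.06 ± 0.08. The only other tested sodium channel, Scn8a, which sits at the site where action potentials begin, read 516.7, 513.8 and 404.2 against 507, 475.9 and 533.2 (-0.08 ± 0.11), so the groups overlapped.

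Kcnc1 encodes a potassium channel that closes quickly and lets neurons fire at high rates. It was measured by 1 probe set, at 54.3, 71.1 and 69.4 in knockout brains, against 97.5, 105.2 and 113.4, with no overlap. All 3 knockout signals lay under the limit of the filter on dim probe sets, so Kcnc1 was tested because of its wild-type level. The means were 64.9 ± 9.23 (SD, n = 3) and 105.4 ± 7.93, and the log2 difference, 1.5-fold on that scale, was -0.59 ± 0.17 (SE; adjusted p = 0.538 in limma). The exact permutation test gave p = 0.1, again the smallest possible. Knockout replicate 2, the brain with low cerebellar signal, had the highest Kcnc1 signal of the 3 knockout animals. Without it the difference was -0.65 ± 0.18 (adjusted p = 0.401 in limma, and 0.247 to 0.95 over all settings tried).

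Cacna1g encodes the pore of a T-type calcium channel, which opens near the resting potential and drives burst firing in the thalamus. Its probe set read 158.4, 138.8 and 174 in knockout brains, against 203.4, 214.9 and 237.5. Every knockout brain was below every wild-type brain, and knockout replicate 2 was the lowest of all 6. The means of 157.1 ± 17.6 and 218.6 ± 17.4 (SD, n = 3) gave a fitted 1.36-fold difference, on the log2 scale -0.44 ± 0.12 (SE; adjusted p = 0.538 in limma), and the exact permutation test gave p = 0.1. Without knockout replicate 2 the difference was -0.36 ± 0.12 (adjusted p = 0.467 in limma, and 0.313 to 0.921 over all settings).

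Kcnj9 encodes an inward rectifier subunit that G proteins open, and its less specific probe set gave the most negative difference of all tested channels. It read 66.1, 69.9 and 82.3 in knockout brains, against 76.3, 210.4 and 190.1. Wild-type replicate 1 lay among the knockout values, so the groups overlapped, and 2 of the 3 knockout signals lay under the limit of the filter. The log2 difference was -0.88 ± 0.31 (adjusted p = 0.665 in limma), and it was -0.64 to -1.29 when single arrays were left out, with an unadjusted p over 0.05 without knockout replicate 1, wild-type replicate 2 or wild-type replicate 3. The regular Kcnj9 probe set had a difference of the other sign, with 333.6, 273.3 and 361 against 298.7, 297.5 and 323.3 (0.06 ± 0.12).

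Hcn3, a slow pacemaker channel, read 394.4, 463.9 and 469.5 in knockout brains, against 503.4, 522.5 and 533.5, without overlap. The difference was small, at -0.23 ± 0.10 (adjusted p = 0.719 in limma), and its unadjusted p stayed under 0.05 without knockout replicate 2 or 3 but not without any of the other 4 arrays. The unadjusted p of Scn1a (regular probe set), Kcnc1 and Cacna1g stayed under 0.05 in all 6 fits that left out 1 array. These genes were picked from the same arrays and the fits share arrays, so this is a description and no independent support.

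**Figure D2:**
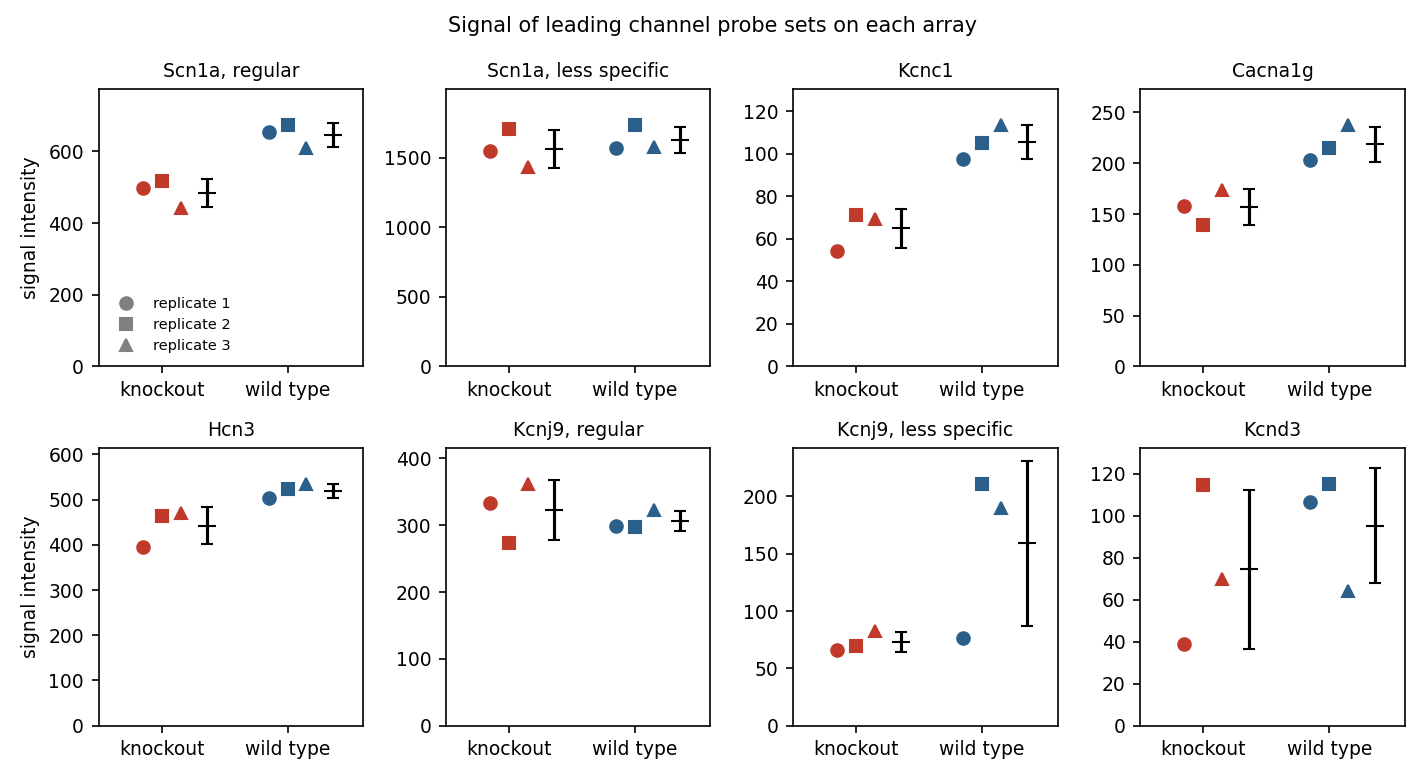
Signal intensity (linear axis from 0) of 8 channel probe sets on the 6 arrays, with knockout in red, wild type in blue, symbols for the replicate number and black bars for the mean ± SD (n = 3). The groups are apart for the regular Scn1a probe set, Kcnc1, Cacna1g and Hcn3, while the other Scn1a probe set and both Kcnj9 probe sets overlap, with wild-type replicate 1 at 76.3 for the less specific Kcnj9 probe set. Kcnd3 also overlaps, with knockout replicate 2 at 114.5.

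Of these 5 genes, 3 have an entry among the RefSeq promoters of assembly GRCm38.p6 used here, each spanning 250 bases before to 50 bases after the annotated start. They are shown to let the start regions of the lowest-p members be compared. Capitals mark 2 motifs searched on both strands, GGGCGG (the GC box) and TATAAA (the TATA box), which share no letters and so cannot overlap.
Kcnc1, chr7:46396218-46396517, + strand: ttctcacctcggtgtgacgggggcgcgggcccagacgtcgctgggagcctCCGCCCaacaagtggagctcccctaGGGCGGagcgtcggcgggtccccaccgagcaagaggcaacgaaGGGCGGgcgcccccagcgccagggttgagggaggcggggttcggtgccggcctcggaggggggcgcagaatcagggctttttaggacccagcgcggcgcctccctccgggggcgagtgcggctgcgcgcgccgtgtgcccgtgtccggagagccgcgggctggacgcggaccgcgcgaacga
Kcnj9, chr1:172329273-172329572, - strand: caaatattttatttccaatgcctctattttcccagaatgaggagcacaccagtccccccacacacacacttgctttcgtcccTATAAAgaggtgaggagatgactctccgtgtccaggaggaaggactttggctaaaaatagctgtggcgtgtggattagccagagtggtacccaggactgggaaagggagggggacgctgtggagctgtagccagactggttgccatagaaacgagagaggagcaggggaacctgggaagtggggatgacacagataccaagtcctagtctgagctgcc
Scn1a, chr2:66440788-66441087, - strand: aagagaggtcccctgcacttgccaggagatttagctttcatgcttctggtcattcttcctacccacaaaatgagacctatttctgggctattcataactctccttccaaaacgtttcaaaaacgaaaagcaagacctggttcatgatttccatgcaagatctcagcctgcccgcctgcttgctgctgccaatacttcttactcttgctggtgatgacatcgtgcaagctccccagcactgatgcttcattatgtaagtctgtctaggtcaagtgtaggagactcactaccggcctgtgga

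The Kcnc1 window held 3 GC boxes and a G and C content of 74.7%, whereas those of Kcnj9 (52.3%) and Scn1a (47.3%) held 0 GC boxes, and Kcnj9 held 1 TATA box. The GC box was found in 30 of 60 promoters of the 47 channel genes listed and in 35.7% of all 32851 promoters. The TATA box was found in 3 of 60 and in 13.6%. These are matches of letters in 1 window per start. Cacna1g and Hcn3 are named only.

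Among voltage-gated potassium channel pores, 13 probe sets of 12 genes were tested out of 19, and 7 had negative and 6 positive differences, with a median of -0.01. The lowest p after that of Kcnc1 was that of Kcna2, an axonal channel that limits repetitive firing, at 184, 149.3 and 182.2 in knockout brains, against 197, 201.5 and 198.6. Its groups did not overlap, but its difference of -0.20 ± 0.12 became -0.11 ± 0.11 without knockout replicate 2, the lowest brain. Kcna1, its close partner in axons, was likewise lowest in that brain (882.3, against 1010 to 1129 on the other arrays) and went from -0.11 to -0.02 without it. Kcnh2, a channel of the erg family, read 502, 518.3 and 582.1 in knockout brains, against 449.5, 478.4 and 510.3 (0.15 ± 0.09). Kcnd3, an A-type channel that opens below the firing threshold, was the member whose difference moved most without knockout replicate 2. It read 38.9, 114.5 and 69.7 against 106.6, 114.8 and 64, and its difference of -0.35 ± 0.32 became -0.66 ± 0.29 without knockout replicate 2, the highest of the knockout brains for this gene. Without knockout replicate 1, the lowest, it became -0.04 ± 0.28. The mean knockout level of Kcnd3 on the log2 scale lay under the limit of the filter, so it was tested because of its wild-type level. Its relative Kcnd2 had -0.10 and 0.01 by its 2 probe sets. Kcna3, Kcna5 and Kcna6 lay between 0.18 and 0.20, but Kcna3 read 141.3 in knockout replicate 1 and 79.6 to 95.6 on the other arrays, and was at -0.04 ± 0.18 without that brain. The mean wild-type level of Kcna6 lay under the limit of the filter, so Kcna6 was tested because of its knockout level. Kcnh1 lay at -0.17, or 0.02 ± 0.21 without knockout replicate 3. Kcns2, a silent subunit, and Kcnq1, by a less specific probe set, lay between -0.01 and 0.01.

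Auxiliary potassium channel subunits were represented by the Kcnab genes, which bind to the inner side of Kcna pores. Of 5 tested probe sets 4 had positive differences (median 0.11). Both less specific probe sets lay higher in all knockout brains. That of Kcnab2 read 600.5, 692.9 and 617.8 against 559.8, 572.9 and 536.9 (0.19 ± 0.09), and that of Kcnab1 read 88.6, 88.5 and 81.1 against 75.5, 78.9 and 64 (0.20 ± 0.16). The regular probe sets of both genes overlapped between groups, at 0.03 ± 0.10 and 0.11 ± 0.12. Kcnab3 was at 0.00 ± 0.12.

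Potassium channels opened by calcium overlapped between groups. Kcnma1, the large-conductance channel, read 1480, 1734 and 1350 against 1677, 1548 and 1393 (-0.02 ± 0.10). The small-conductance channel Kcnn1 had -0.01 ± 0.16, and Kcnn4, of intermediate conductance, 0.13 ± 0.22, which became 0.31 ± 0.21 without knockout replicate 2 and -0.01 ± 0.24 without wild-type replicate 1. Of 15 inward rectifier probe sets 4 were tested, and beside Kcnj9 these were Kcnj4 (0.09 ± 0.09) and Kcnj11, the pore of the ATP-sensitive channel (0.07 ± 0.17). Kcnj11 read 366.7 in wild-type replicate 3, above all other brains (224.9 to 291.1). Without that array its difference was 0.28 ± 0.11, with an unadjusted p under 0.05 (adjusted p = 0.933 in limma, and 0.711 to 0.996 over all settings).

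Background potassium channels had 3 positive and 1 negative difference. Kcnk7 had the most positive difference of all tested channels and was split within the knockout group, with 200.8, 112.4 and 193.3 against 136.1, 125.3 and 127.8 in wild-type brains. Knockout replicate 2 lay below, and knockout replicates 1 and 3 above, every wild-type brain. Its difference was 0.30 ± 0.20 with all arrays and 0.55 ± 0.12 without knockout replicate 2 (adjusted p = 0.354 in limma, and 0.354 to 0.966 over all settings). Kcnk1 (-0.11 ± 0.09), Kcnk2, a channel opened by stretch and lipids (0.06 ± 0.09), and Kcnk4 (0.09 ± 0.10) overlapped between groups.

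Calcium channel pores gave differences of both signs. Beside Cacna1g, Cacna1b, the N-type channel of presynaptic terminals, read 321.3, 323.4 and 363.9 against 351.4, 357.1 and 422 (-0.15 ± 0.11). Cacna1a, the P/Q-type channel that is prominent in Purkinje cells, read 222, 174.1 and 226 against 205.4, 169.7 and 231.8 (0.03 ± 0.15), so that knockout replicate 2 lay within the wild-type range. Cacna1c, an L-type channel whose probe set is less specific, read 340.7, 269.8 and 365.8 against 283.8, 313.7 and 269.6. Its difference was 0.15 ± 0.13 with all arrays and 0.28 ± 0.11 without knockout replicate 2 (adjusted p = 0.496 in limma, and 0.496 to 0.969 over all settings). Among auxiliary subunits, Cacnb2, which carries the pore to the membrane, read 398.8, 479 and 441.9 against 511.1, 463.2 and 555.1 (-0.21 ± 0.10, adjusted p = 0.743 in limma). Cacng2, better known as stargazin, a partner of AMPA receptors, had -0.09 ± 0.11, and Cacna2d1 and Cacna2d3 had -0.03 ± 0.12 and 0.06 ± 0.14.

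All 3 HCN probe sets had negative differences, under quantile normalisation as well (-0.22 for Hcn3, -0.13 and -0.14 for Hcn2). Median centring moves every probe set alike, here downwards, so it could not change these signs. Beside Hcn3, the less specific probe sets of Hcn2, a main pacemaker channel of the thalamus, read 639.9, 682.6 and 640.4 against 703.3, 753.3 and 698 (-0.13 ± 0.08, no overlap) and 1778, 1830 and 1917 against 1911, 2033 and 2217 (-0.15 ± 0.07, overlapping by knockout replicate 3 and wild-type replicate 1). The class median was -0.20, -0.16 and -0.14 in knockout replicates 1, 2 and 3 and -0.04, 0.01 and 0.04 in wild-type replicates 1, 2 and 3, relative to the wild-type mean. The class holds 2 genes and only Hcn3 had an unadjusted p under 0.05, so these medians are a description.

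The brain with low cerebellar signal did not stand apart over the channels. Of the 43 tested probe sets 9 were lowest of all 6 arrays in knockout replicate 2 (20.9%, against 19.9% of all tested probe sets), and 7 were highest there (16.3%, against 19.1%). Leaving it out moved the difference of 1 channel, Kcnd3, by over 0.3 (2.33%, against 1.37% of all tested), and the median size of the move was 0.06 for channels and 0.05 for all. It changed the sign of 5 channels (11.6%, against 14.6% of all tested), Kcnab2, Kcnab3, Kcnq1, Cacna2d3 and Kcnd2, all of which were at most 0.10 in size with all arrays. On the remaining 5 arrays 0 of 43 channels passed after adjustment in limma (0.0268% of all tested probe sets did). At an unadjusted p under 0.05, 6 were lower (14%, against 5.09%) and 2 higher (4.65%, against 4.48%). Differences were negative for 22 (51.2%, against 48.2% of all tested). The 5 probe sets found with all arrays were among them, joined by Cacnb2 among the lower (-0.27 ± 0.11) and by Kcnk7 and Cacna1c among the higher. Groups did not overlap for 8 lower and 7 higher channels, 18.6% and 16.3%, against 14.0% and 13.9% of all tested probe sets. Beside the previously picked Kcnc1 and Cacna1g, 4 of 41 were lower (9.76%) and 2 higher (4.88%) at an unadjusted p under 0.05. Without overlap, 6 of these 41 lay below (14.6%) and 7 above (17.1%).

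**Figure D3:**
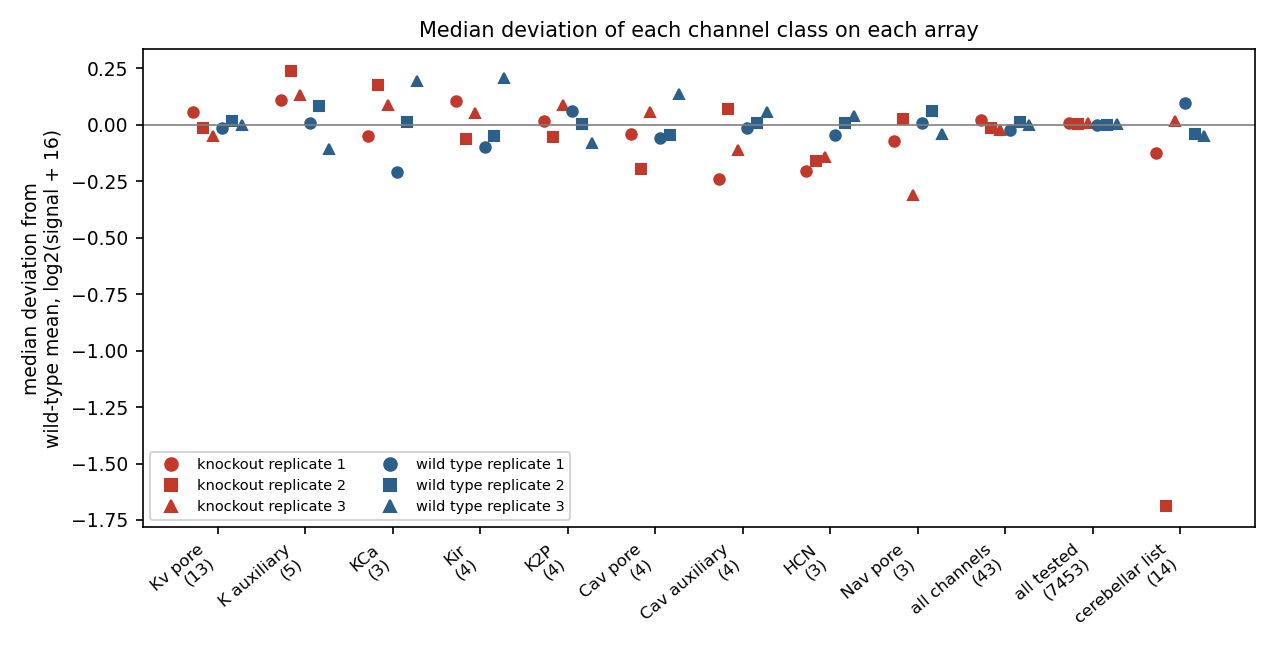
Median deviation from the wild-type mean, in log2(signal + 16), of each channel class, of all tested channels, of all tested probe sets and of the cerebellar list on each array, with the number of tested probe sets in brackets. Knockout replicate 2 lies at -1.69 for the cerebellar list but at -0.02 for all channels. The 3 knockout values lie below all wild-type values for the HCN class and above them for the auxiliary potassium channel subunits. The latter are 5 probe sets of 3 genes, whose median difference was 0.11, or 0.025 with specific probe sets only.

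Proteins that anchor or regulate these channels, from a list of 36 genes, were also examined. Of 25 tested probe sets 0 had an adjusted p under 0.05 in limma, and at an unadjusted p under 0.05 1 was lower (4%, against 3.68% of all tested probe sets) and 2 higher (8%, against 3.26%), with a median difference of 0.00. Ank1, an ankyrin, read by a less specific probe set 163.2, 120 and 141.8 against 189, 186.9 and 195 (-0.40 ± 0.13). Its 2 other tested probe sets, also less specific, overlapped between groups, at -0.15 ± 0.12 and 0.05 ± 0.10. Ank3, the ankyrin that gathers sodium channels at the axon initial segment, read 1317, 1130 and 1390 against 1078, 1108 and 1083, higher in every knockout brain (0.22 ± 0.09, adjusted p = 0.719 in limma), whereas its less specific probe set overlapped at 0.01 ± 0.10. Calm2, a calmodulin, had 0.46 ± 0.18, Dlg1, a scaffold of Kcna channels, 0.16 ± 0.08, Dpp6, a partner of Kcnd channels, -0.23 ± 0.11, and Fgf11 -0.21 ± 0.12 and -0.08 ± 0.11 by 2 probe sets. Ion channels of other families, from a list of 50 genes, had 23 tested probe sets with a median of 0.01, of which 0 passed after adjustment and 0 were lower (against 3.68% of all tested) and 1 higher (4.35%, against 3.26%) at an unadjusted p under 0.05. That one was Clcn4, a chloride and proton exchanger, at 744.2, 798.8 and 734.3 against 696.5, 655 and 615.3 (0.21 ± 0.08). The second Clcn4 probe set overlapped at -0.01 ± 0.11. Clcn7 had 0.61 ± 0.31 and -0.05 ± 0.11 by 2 probe sets, and both overlapped between groups. The first read 67.2 in wild-type replicate 3 and 145.1 to 257.7 on the other arrays. Vdac3, a mitochondrial pore, had 0.16 ± 0.11, Itpr2 and Ryr1, calcium release channels, -0.36 ± 0.17 and -0.22 ± 0.17, and Trpv2 -0.05 ± 0.10.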

How the data were processed

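The deposited table holds an intensity on a linear scale for each probe set, from one-colour Affymetrix arrays, and the submitters' processing notes name GCOS 1.4. The authors scaled every array to 1 target, as far as the values show, which would hide a change in total RNA. The signal algorithm was not given in the sources used here. After 66 control entries were set aside, values were transformed as log2(signal + 16), which understates the folds of dim genes, and probe sets with a mean at or above the 40th percentile (6.46) were kept, 7453 in all. The genotypes were compared by limma 3.58.1 under R 4.3.3 (lmFit, eBayes with an intensity trend, two-sided), with Benjamini-Hochberg adjustment over all kept probe sets and a threshold of 0.05. Simulated data with known changes were used to test the procedure. Recovery was required there only for changes larger than any channel difference given here, so this test does not show power for these differences. With 6 arrays, whose number limits precision, the median SE of a tested channel was 0.12 on the log2 scale. By Entrez identifier, all 62 channel genes matched a RefSeq table of GRCm38.p6, with the same symbol. Suffixes such as _s_at, _f_at and _r_at mark less specific probe sets.

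The members, classes and lists were chosen with earlier results of these data known. Genes were named by a rule (Kcnc1 and Cacna1g, the 3 lowest p values per class, any p under 0.05, groups apart by over 0.3, or a move of over 0.3 without knockout replicate 2, and the 3 lowest p values per direction of each list). Cacna1a, Cacna1e, Cacna2d1, Kcna1, Kcna3, Kcna5, Kcna6, Kcnd2, Kcnh1, Kcnj15, Kcnk2, Kcnq1 and Kcns2 are outside this rule and were chosen with their values known. Alternatives were each array left out, the replicate block, age, median centring, quantile normalisation, a pseudocount of 1 or 64, a filter at the 60th percentile or none, no trend, array weights, 1 probe set per gene and specific probe sets only.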

Additional observations from a re-analysis of the deposited data

How the results depend on the processing

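No channel and no gene of either list passed after adjustment under any of the 18 alternatives. With all arrays 5 channels were lower (11.6%, against 3.68% of all tested) and 0 higher at an unadjusted p under 0.05. The filter at the 60th percentile, which leaves out Kcnc1 and Cacna1g, gave 2 lower (7.14%, against 4.19%). With 1 probe set per gene 3 were lower (8.11%, against 3.76%), namely Hcn3 and the previously picked Kcnc1 and Cacna1g. Scn1a and Kcnj9 were then read by their brighter probe sets, at -0.06 and 0.06. Array weights gave 7 lower, the most (16.3%, against 5.74%). The age covariate, array weights and the absence of a filter each gave 1 higher. Leaving out single arrays gave 3 to 6 lower (3 without knockout replicate 1 and 3 without wild-type replicate 3) and 0 to 2 higher (2 without knockout replicate 2), and a channel median of -0.035 to -0.0001. Class medians with specific probe sets only were -0.10 for voltage-gated potassium pores, 0.025 for potassium channel auxiliary subunits, -0.23 for HCN and -0.24 for sodium channels, and with 1 probe set per gene 0.025 for auxiliary subunits and -0.19 for HCN; fewer probe sets enter these. Over the arrays left out they ran from -0.055 to 0.017 for potassium pores, 0.0195 (without wild-type replicate 3) to 0.21 (without wild-type replicate 2) for auxiliary subunits and -0.20 to -0.13 for HCN. The median of the tested potassium channels opened by calcium went from -0.01 to -0.11 without knockout replicate 2. Partner genes numbered 0 lower with the 60th percentile filter, 1 probe set per gene or specific probe sets, 2 lower with median centring, and 1 higher with that filter, without an intensity trend or with the replicate block. Without single arrays they were 1 to 3 lower and 0 to 2 higher, with a median of -0.040 to 0.003. Of other ion channels 1 was lower with median centring, without a trend, with quantile normalisation or with the replicate block, 2 were higher with age or the block, and 0 higher with median centring or without a trend. Without single arrays 0 to 1 were lower and 0 to 3 higher, with a median of -0.040 to 0.11. The causes of these moves, beyond fewer probe sets or arrays, were not tested.

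Deviations of same-numbered animals of the 2 groups had correlations of 0.015, 0.147 and 0.201 for numbers 1, 2 and 3. Those of other pairs ran from -0.221 to 0.081, the highest being knockout replicate 1 with wild-type replicate 2. Number 3 is also the 3-month-old animal in both groups, and deviations within a group of 3 sum to 0. Whether the numbers pair the samples cannot be decided from these values. With the replicate block 6 channels were lower and 0 higher at an unadjusted p under 0.05, and Kcnc1 and Cacna1g kept differences of -0.59 and -0.44. These 2 differences ranged from -0.70 to -0.40 and from -0.48 to -0.36 over the alternatives that used all arrays. Dim signal limits Kcnc1 and the 32 untested probe sets most.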

Other observations

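The 32 channel probe sets too dim to be tested were spread unevenly over the classes. They comprised 11 of 15 inward rectifier, 6 of 19 voltage-gated potassium, 5 of 8 sodium channel and 4 of 8 calcium channel pore probe sets, and 3 of 8 of auxiliary potassium subunits. Background potassium channels and auxiliary calcium subunits had 1 each, and the last was Kcnu1, classed here with Kcnma1, Kcnn1 and Kcnn4. No HCN probe set was among them, and 19 of the 32 stayed under a signal of 50 on all 6 arrays. The highest signal of any was 89.2. Second probe sets of Scn8a and Kcna5 were among them, at 2.8 to 6.84 and 4.52 to 9.24, as was the regular probe set of Kcnq1, at 16.4 to 35.3. In these genes a dim reading did not match the tested probe set of the same gene. For 2 of the 32 the groups did not overlap, 1 lower and 1 higher (3.12% each, against 3.42% lower and 7.35% higher of all 4969 untested probe sets). Cacna1e, the R-type calcium channel, read 38.7, 28.7 and 35 in knockout brains by 1 probe set, against 63.5, 45.7 and 48.2, a log2 difference of -0.45 ± 0.19 when no filter was used (adjusted p = 0.795 in limma), and its other probe set overlapped. Kcnj15, an inward rectifier, read 28.1, 14.7 and 13.1 against 12.9, 11.1 and 12.6 (0.27 ± 0.18).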
